A study of Oryctolagus cuniculus with 3 samples.

Results

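Back skin of a Rex rabbit with chinchilla fur was set against back skin of a sibling with white fur, at 1 RNA-seq library each. Rex is a domestic breed with a short plush coat, and the animals were full siblings of 1 litter, reared together and sampled at 42 days of age, around the first moult. The groups are defined by fur colour alone, no genotype at any colour locus is given in the sources used here, and all animals were anaesthetised with sodium pentobarbital before sampling. A black sibling gave the third library of the series, and its values stand beside the others as a further level. The comparison joined the 2 lists by identifier and kept the 12310 coding sequences that reached 1 RPKM in one or both libraries, of 15190 with a read in either and 15558 with a read in any of the 3. RPKM is a read number scaled to coding length and to the total of assigned reads of the library. That total was 15.0 M reads for chinchilla and 14.8 M reads for white (M for mega), and the median coding sequence with reads had 278 and 274 reads, so both were read to almost the same depth.

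Hair takes its colour from melanocytes of the hair bulb, which build dark eumelanin or yellow to red pheomelanin from tyrosine and hand the pigment to the keratinocytes of the growing shaft. Tyrosinase carries out the first step of this synthesis, and the agouti and melanocortin receptor signals switch between the 2 pigments. Chinchilla fur is a banded grey coat, and in rabbits the chinchilla and albino types are textbook alleles of the tyrosinase locus. Whole skin mixes these few melanocytes with keratinocytes of epidermis and follicle, fibroblasts, fat, vessels and muscle, so fewer cells of a type and less RNA per cell cannot be told apart in these values. The deposited lists name each coding sequence by an Ensembl protein identifier only, and of the 38822 genes in the RefSeq table at hand 0 carry an Ensembl identifier. No coding sequence could therefore be given a gene name, and the tissue label could not be checked against marker genes. The coding sequences are described by their coding length, level and coverage, and 4 are named by identifier.

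Most coding sequences lay close together in chinchilla and white skin. On the scale of log2(RPKM + 1), chinchilla minus white, the median difference was 0.05, the middle 50% ran from -0.14 to 0.25, and 88.1% of the coding sequences were less than 1.5-fold apart. At 2-fold, 219 were higher in chinchilla skin (1.78%) and 130 were lower (1.06%), together 349 or 2.84% of those compared. With 1 animal per colour these differences have no replicate check, and no test across animals could be made. The exact 95% counting interval of the RPKM ratio, which covers counting error only, since reads are not independent molecules, excluded a ratio of 1 for 212 of the 219 and 128 of the 130. It did so for 49.6% of all compared coding sequences, so at this depth many small differences exceed counting error as well. It lay wholly beyond 2-fold for 109 of the 219 and 70 of the 130, against 1.58% of all compared. Differences of 4-fold were rare, at 16 higher and 9 lower (0.203%). At the 2-fold line itself, the last coding sequence counted as higher had 179 RPKM in chinchilla and 88.7 RPKM in white skin, and the first one left out had 7.03 and 3.02 RPKM. On the other side these were 12.4 and 25.8 RPKM just inside and 649 and 1299 RPKM just outside.

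**Figure D1:**
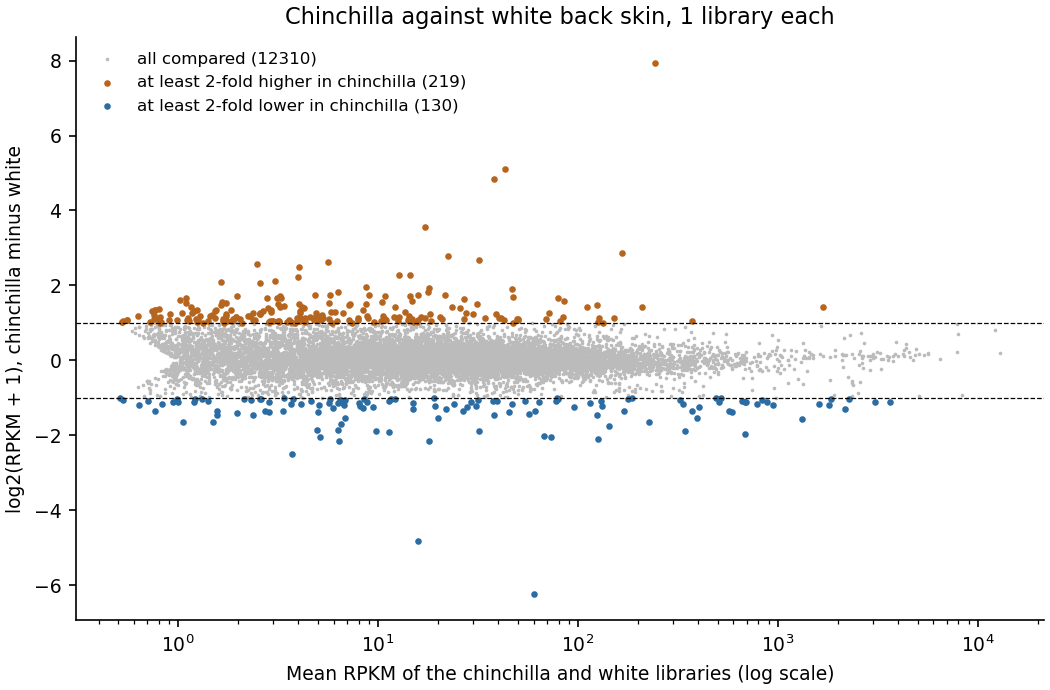
Difference between the chinchilla and white libraries, as log2(RPKM + 1) of chinchilla minus that of white, against the mean RPKM of both on a log axis. Each point is 1 coding sequence, dashed lines mark 2-fold, and the 219 higher ones lie mostly at low levels while the 130 lower ones reach into the most abundant.

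The 4 coding sequences furthest apart were close to absent from 1 of the 2 skins. ENSOCUP00000003355, of 411 bases, had 482 RPKM in chinchilla, 0.985 RPKM in white and 338 RPKM in black skin. Chinchilla exceeded white 490-fold (95% counting interval 225 to 1336). Both coloured skins were high for it, and the 6 reads of white skin touched 36.5% of its bases against 97.6% in chinchilla. ENSOCUP00000015664, of 366 bases, had 84.9 RPKM in chinchilla, 1.47 RPKM in white and 2.36 RPKM in black skin, so that chinchilla alone was high (57.6-fold over white, 29.0 to 134). ENSOCUP00000017707, of 1203 bases, had 0.610 RPKM in chinchilla, 119.6 RPKM in white and 91.2 RPKM in black skin. Here chinchilla alone was low, by 196-fold against white (109 to 394). Its 2133 reads in white skin and 1782 reads in black skin touched nearly the same share of its bases, 63.6% and 63.5%. ENSOCUP00000011468, of 438 bases, had 1 read or 0.152 RPKM in chinchilla, 31.7 RPKM in white and 16.9 RPKM in black skin, again with chinchilla alone low. A ratio that rests on 1 read is loose, and the white level was 208-fold higher with an interval from 37.0 to 8270.

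Among the next 8 on the higher side, 2 stood out by their size in chinchilla skin. A coding sequence of 369 bases had 74.1 RPKM in chinchilla, 1.64 RPKM in white and 2.34 RPKM in black skin, a 45.0-fold difference from white (23.5 to 99.2). Its reads numbered 410, 9 and 14 in that order, close to the 466, 8 and 14 of ENSOCUP00000015664, which is 366 bases long. The lengths of both are nearly the same. Their high chinchilla and low white levels follow from how they were picked, while the black level, low in both, was not used for that. One of 1485 bases had 293 RPKM in chinchilla, 39.0 RPKM in white and 34.8 RPKM in black skin, and 6520 reads in chinchilla set its 7.50-fold difference narrowly (6.99 to 8.07). One of 585 bases had 32.4 RPKM in chinchilla, 1.84 RPKM in white and 4.32 RPKM in black skin, and one of 1875 bases had 40.0, 4.96 and 11.5 RPKM, listed alike. In these as well chinchilla was the highest of the 3 skins.

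The other members of this group were higher in black than in chinchilla skin, about as high, or rested on few reads. A coding sequence of 501 bases had 55.9 RPKM in chinchilla and 7.94 RPKM in white skin, but 232 RPKM in black. One of 315 bases had 10.4 RPKM in chinchilla, 0.856 RPKM in white and 31.7 RPKM in black skin. For both, white was the lowest skin and black the highest. One of 264 bases had 7.58 RPKM in chinchilla and 7.23 RPKM in black skin against 0.511 RPKM in white, where it had only 2 reads, and its 14.8-fold difference had an interval from 3.76 to 128. The shortest, of 135 bases, had 10 reads in chinchilla, 3 in black and 0 in white skin. Behind a count of 0 up to 3 reads were taken as possible, which makes it at least 3.30-fold higher in chinchilla than in white.

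The next 8 on the lower side differed less, by 2.50 to 1.97 on the log2 scale. The most abundant of them, of 1470 bases, had 279.6 RPKM in chinchilla, 1095 RPKM in white and 1275 RPKM in black skin, 3.92-fold higher in white than in chinchilla (3.81 to 4.03). Chinchilla stood apart from 2 skins of like level. One of 396 bases had 46.8 RPKM in chinchilla, 204 RPKM in white and 134 RPKM in black skin, and one of 300 bases had 28.2, 119 and 69.6 RPKM in the same order. One of 393 bases had 5.94 RPKM in chinchilla, 29.9 RPKM in white and 21.3 RPKM in black skin. In these 3 black lay between the others. Another 3 had white as the skin that stood apart. A coding sequence of 1077 bases had 26.2 RPKM in chinchilla, 109.8 RPKM in white and 34.0 RPKM in black skin, one of 1167 bases had 1.71, 11.0 and 1.95 RPKM, and one of 1602 bases had 1.37, 8.84 and 2.08 RPKM. The last, of 1104 bases, had 0.423 RPKM in chinchilla from 7 reads, 7.03 RPKM in white from 115 reads and 2.79 RPKM in black from 50 reads. White exceeded chinchilla 16.6-fold (7.81 to 42.3).

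**Figure D2:**
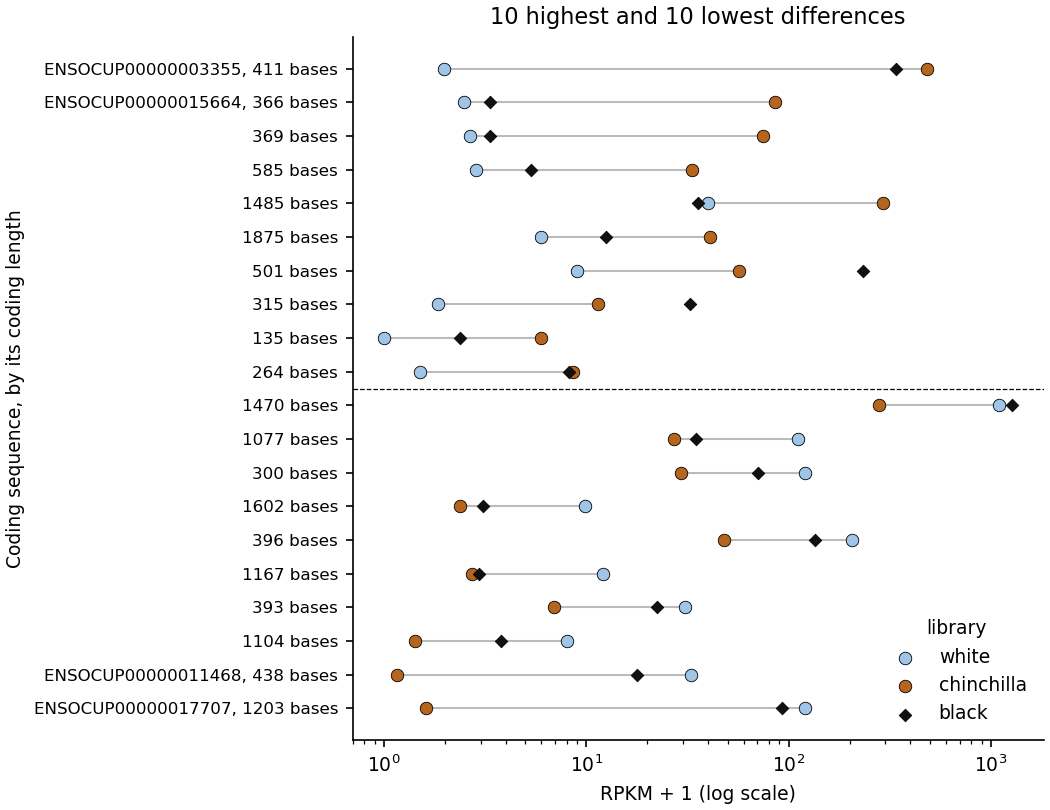
RPKM + 1 (log axis) of the 10 coding sequences highest and the 10 lowest in chinchilla relative to white skin, each labelled by its coding length, with the white, chinchilla and black libraries as points and a grey line joining white and chinchilla. Above the dashed line chinchilla is the higher of the joined pair, up to 482 RPKM against 0.985 RPKM, and below it white is the higher.

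The direction of the 2-fold differences changed with the level of the coding sequence. Below a mean of 5 RPKM over both libraries, 118 of 2520 were higher in chinchilla (4.68%) and 34 lower (1.35%). From 5 to 20 RPKM the counts were 59 and 35 of 3779, and from 20 to 100 RPKM they were 31 and 24 of 4569, the lowest shares of all levels. From 100 to 1000 RPKM, 10 of 1319 were higher (0.758%) and 29 lower (2.20%), and from 1000 RPKM up 1 of 123 was higher and 8 were lower (6.50%). The middle of each group did not follow: the median difference was 0.11 (log2) below 5 RPKM, -0.02 from 100 to 1000 RPKM and 0.10 from 1000 RPKM up. The excess of lower ones among abundant coding sequences therefore came from a minority far from the median. Among the 1442 of at least 100 RPKM, 11 higher and 37 lower became 9 and 43 with TMM scaling, 9 and 34 with a pseudocount of 5, and 9 and 31 when the counting interval had to lie beyond 2-fold. Below 5 RPKM the pseudocount decided the counts, with 2 higher and 2 lower at 5 and 359 and 137 at 0.1.

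**Figure D3:**
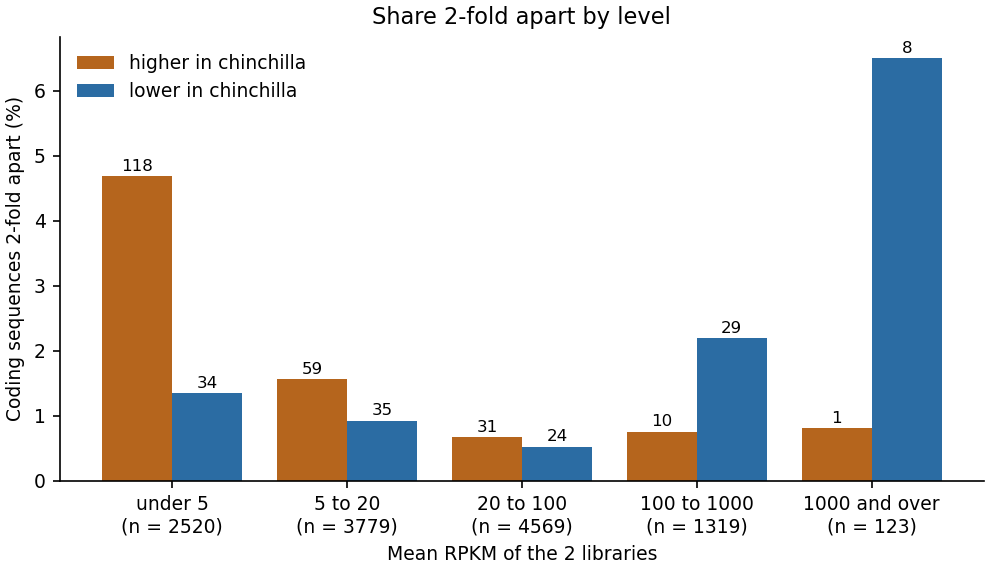
Percentage of coding sequences at least 2-fold higher (brown) or lower (blue) in chinchilla than in white skin, in 5 classes of mean RPKM, with the number of such coding sequences above each bar and the class size below. Higher ones lead below 5 RPKM (118 against 34) and lower ones lead from 100 RPKM up (29 against 10 and 8 against 1).

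Of the 9 coding sequences 2-fold apart from a mean of 1000 RPKM up, 6 lay lower in chinchilla and were no longer than 504 bases. One of 399 bases had 2320 RPKM in chinchilla, 4990 RPKM in white and 4476 RPKM in black skin. One of 264 bases had 1930 RPKM in chinchilla, 4180 RPKM in white and 4418 RPKM in black skin, and one of 297 bases had 1264, 3096 and 3542 RPKM. Those of 186, 495 and 504 bases had 1481, 1103 and 988 RPKM in chinchilla, 3034, 2509 and 2210 RPKM in white, and 3165, 2907 and 2658 RPKM in black skin. In all 6 the white and black skins lay near each other and chinchilla alone was low, by 2.05-fold to 2.45-fold against white. These folds lie close to the 2-fold line, and for the one of 186 bases the interval reached below it (1.97 to 2.13).

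The other 3 of this level behaved in 3 ways. A coding sequence of 1491 bases had 667 RPKM in chinchilla, 1982 RPKM in white and 2298 RPKM in black skin, 2.97-fold higher in white than in chinchilla (2.91 to 3.03), with chinchilla alone low. The longest, of 3585 bases, had 1213 RPKM in chinchilla, 2463 RPKM in white and 1031 RPKM in black skin, so that white alone was high. The single one higher in chinchilla, of 564 bases, had 2461 RPKM there, 914 RPKM in white and 1688 RPKM in black skin, a 2.69-fold difference (2.62 to 2.76) with black in between. Each of the 9 rested on at least 4132 reads in each of the 2 libraries, and reads touched at least 95.7% of its bases in both.

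From 100 to 1000 RPKM, the 5 furthest lower ones repeated the pattern of a low chinchilla level. Besides those of 1470 and 396 bases given above, a coding sequence of 1371 bases had 145.5 RPKM in chinchilla, 539.5 RPKM in white and 781 RPKM in black skin. One of 1305 bases had 65.1 RPKM in chinchilla, 219.8 RPKM in white and 310 RPKM in black skin, and one of 1344 bases had 109.9, 343 and 531 RPKM. For these 3 black was the highest skin, and the white level exceeded the chinchilla level 3.71-fold (3.56 to 3.86), 3.38-fold (3.17 to 3.60) and 3.12-fold (2.97 to 3.27). On the higher side, after ENSOCUP00000003355 and the one of 1485 bases, a coding sequence of 447 bases had 183 RPKM in chinchilla, 65.0 RPKM in white and 51.0 RPKM in black skin. One of 1143 bases had 305 RPKM in chinchilla, 113.5 RPKM in white and 98.7 RPKM in black skin, and one of 1212 bases had 161, 59.7 and 77.1 RPKM. White and black were again of like level, and chinchilla was the higher by 2.69-fold to 2.82-fold against white.

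The abundant lower ones were spread unevenly over coding length. Of the 1442 coding sequences of at least 100 RPKM, 481 were up to 600 bases long and 17 of these were lower in chinchilla (3.53%). Another 352 were over 1000 and up to 1600 bases long, and 18 of these were lower (5.11%). Between these classes, over 600 and up to 1000 bases, 1 of 376 was lower (0.266%), and over 1600 bases 1 of 233 (0.429%). The higher ones numbered 5, 4, 1 and 1 in the order in which these classes are given. Over all levels, 3.03% of the 1914 coding sequences of up to 600 bases were lower in chinchilla and 4.18% were higher. In these, 46 were higher and 17 lower below 5 RPKM, and 18 and 16 from 5 to 20 RPKM. From 20 to 100 RPKM they numbered 11 and 8. Short coding sequences were thus 2-fold apart in both directions at lower levels, and lower ones led only from 100 RPKM up. For the class of over 1000 to 1600 bases the share lower over all levels was 1.09% of 3298. The medians of the 4 classes at 100 RPKM and more hardly differed, at -0.01, -0.01, -0.02 and 0.02 (log2), in the order used for the higher ones. With TMM scaling the lower ones numbered 17, 21, 2 and 3 in the same order, and with the trend over coding length removed 17, 21, 1 and 2. The class limits were set after the values were seen, and what the members of the 2 length classes encode is not known here.

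**Figure D4:**
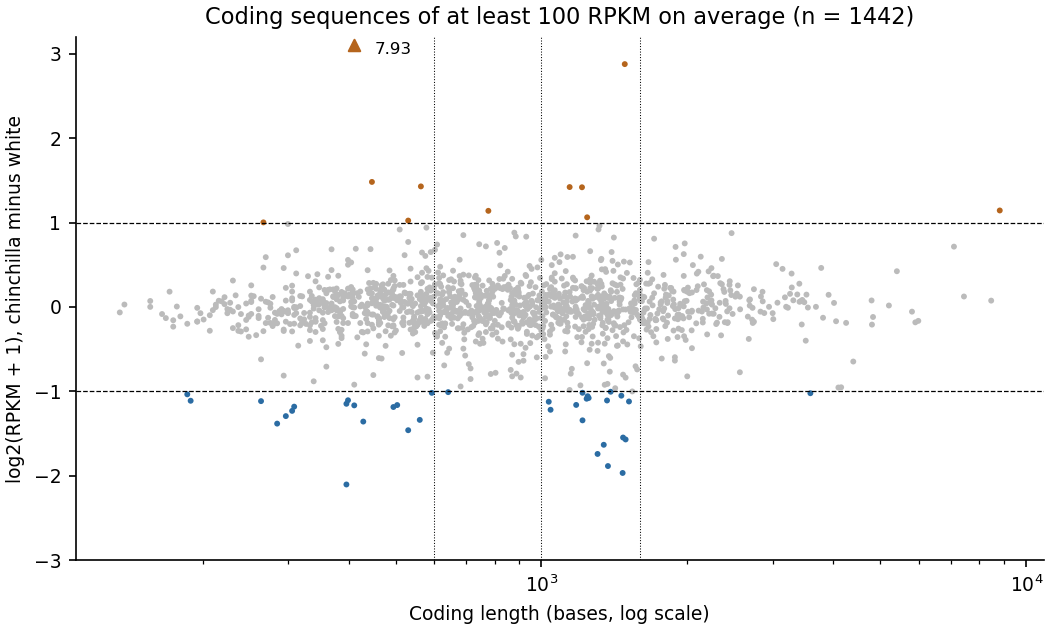
Difference between chinchilla and white skin, log2(RPKM + 1), against coding length (log axis) for the 1442 coding sequences of at least 100 RPKM on average, with dashed lines at 2-fold and dotted lines at 600, 1000 and 1600 bases. The 37 lower ones (blue) fall into a group of up to 600 bases and one of over 1000 to 1600 bases with 1 exception on either side of the latter, and a triangle marks ENSOCUP00000003355 at 7.93, beyond the axis.

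Weighed by reads rather than counted, the change ran towards fewer reads in the 2-fold set. The 130 lower coding sequences took 3.79% of the assigned reads in white, 1.64% in chinchilla and 3.67% in black skin. The 219 higher ones took 0.849% in chinchilla, 0.315% in white and 0.857% in black skin. In black skin 4 of the 219 held 51.5% of these reads, led by one of 5838 bases with 27301 reads in black, 237 in chinchilla and 69 in white (singled out after its values were seen). Without the 4 the shares were 0.551% in chinchilla, 0.193% in white and 0.416% in black skin. Their levels were modest, with medians of 6.70 RPKM in chinchilla, 2.13 RPKM in white and 4.10 RPKM in black skin, whereas the lower ones had medians of 7.96, 26.5 and 15.8 RPKM in that order. The share of the lower set hung on the scaling. With TMM factors it took 8.20% of the reads in white and 3.91% in chinchilla skin, since very abundant coding sequences lie just short of the 2-fold line in the deposited scale. Both sets were shorter than the compared coding sequences as a whole, with median coding lengths of 894 bases for the higher and 736.5 bases for the lower set against 1296 bases. The sets were chosen on the chinchilla and white values, while the black values were not used for it. Coding length entered the choice through RPKM, and a short coding sequence holds fewer reads at a given RPKM. The shorter lengths of the sets are therefore no separate readout.

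Over all coding sequences, 10.5% of the reads would have to be reassigned to turn one library's profile into the other's. The 10 that shifted most made up 28.8% of all shifts, and 6 of them took a smaller share in chinchilla skin. A coding sequence of 4149 bases led, with 1.44% of the reads in chinchilla, 2.78% in white and 3.26% in black skin. One of 1350 bases took 0.776% in chinchilla, 1.47% in white and 1.14% in black skin. For both, chinchilla was the lowest skin. Those of 4095, 4395 and 3585 bases took 0.657%, 0.818% and 0.435% in chinchilla, 1.27%, 1.28% and 0.883% in white, and 0.465%, 0.510% and 0.370% in black skin. For these 3 white was the highest skin, and black was below chinchilla. The gains were led by a coding sequence of 1707 bases, with 2.66% of the reads in chinchilla, 1.52% in white and 0.964% in black skin, and one of 1890 bases, with 1.86%, 1.14% and 0.719%. Both followed the order chinchilla, white, black. Of the 20 that shifted most, 4 were at least 2-fold apart, and the 349 that were 2-fold apart made up 12.8% of all shifts. With the 2-fold sets of TMM scaling these values were 7 and 22.8%. The shifts themselves were taken on the deposited scale in both cases. With the 2-fold sets of either scaling, most of these shifts lay in coding sequences below 2-fold, for which no spread between animals is known.

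A read in 1 of the 2 libraries and none in the other was common but rarely well supported. Of the 15190 coding sequences with a read in either library, 606 had reads in chinchilla skin where white had 0. Another 437 had reads in white skin where chinchilla had 0, with a median of 2 reads in either case. At least 10 reads were reached by 23 of the former and 5 of the latter. Counted as 2-fold apart were 14 of the 606 and 5 of the 437. Against 0 reads, log2(RPKM + 1) is 2-fold apart exactly when the other library reaches 1 RPKM. These counts are therefore only the numbers that reached 1 RPKM, and the 2.84% of all compared is no measure for them. The best supported one of chinchilla skin, of 1074 bases, had 53 reads there (3.29 RPKM), 0 in white and 8 in black skin. With 3 reads in white it would be 17.5-fold higher in chinchilla, and its counting interval started at 13.7-fold. It was followed by those of 1044 and 1335 bases, with 24 and 21 reads in chinchilla, 0 in white, and 10 and 19 in black skin. One of 684 bases had 21 reads in chinchilla as well (2.05 RPKM) and 0 in white, but 418 reads in black skin (37.6 RPKM), and was added after its values were seen. The best supported one of white skin, of 1779 bases, had 56 reads there (2.12 RPKM), 0 in chinchilla and 47 in black skin. With 3 reads in chinchilla it would be 18.9-fold higher in white, and its counting interval started at 14.9-fold. The white and black reads of this one touched 41.5% and 41.3% of its bases. Those of 2292 and 789 bases had 22 and 18 reads in white (0.647 and 1.54 RPKM), 0 in chinchilla, and 10 and 2 in black skin. The one of 2292 bases stayed below 1 RPKM and so was not among those compared at 2-fold. With 3 reads in chinchilla both would be higher in white, by 7.42-fold and 6.07-fold, with intervals that started at 5.54-fold and 4.45-fold.

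Coverage within a coding sequence did not itself enter the choice of the 2-fold sets. It rises with the number of reads per base, though, which RPKM also measures, so it is no separate readout. Among those with at least 50 reads in their higher library, reads touched under 80% of the bases in 16 of 149 higher ones (10.7%), 9 of 101 lower ones (8.91%) and 7.02% of the 10806 that were not 2-fold apart. With at least 200 reads these shares were 3.75%, 5.71% and 3.99%, from 3, 4 and 334 coding sequences in the same order. At this depth the 3 shares lay close together, and their difference was not tested. One of the 4 lower ones was ENSOCUP00000017707. Another, of 1086 bases, had 20.3 RPKM in chinchilla and 42.9 RPKM in white skin with 51.1% and 55.7% of its bases touched, while in black skin a smaller number of reads, 286 against 330 and 691, touched 99.3%. This last one was singled out after its values were seen.

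Some coding sequences of like level in both skins differed in how much of their length was read. Among 7960 with at least 200 reads in both libraries, the covered share differed by a median of 0 percentage points, and the middle 50% lay between -0.28 and 0.32 points (chinchilla minus white). In 85 (1.07%) it differed by at least 10 points, 38 towards chinchilla and 47 towards white, and 1 of the 85 was also 2-fold apart in RPKM, as were 90 of all 7960 (1.13%), a share that allows no reading of so few. The largest gap towards chinchilla was in a coding sequence of 1179 bases, with 73.4% of its bases covered by 205 reads in chinchilla, 33.3% by 230 reads in white and 65.6% by 336 reads in black skin. In one of 990 bases 468 reads covered 63.7% in chinchilla, 390 reads covered 28.1% in white and 384 reads covered 60.6% in black skin. White alone was poorly covered in both. The largest gap towards white was in one of 2433 bases, with 67.9% covered in chinchilla, 94.3% in white and 81.6% in black skin from 779, 686 and 1114 reads. In one of 1428 bases 775 reads covered 60.3% in chinchilla, 755 reads covered 82.6% in white and 776 reads covered 88.5% in black skin, at 36.2, 35.7 and 33.5 RPKM. Which parts were left uncovered is not recorded in the percentages, and the cause was not tested. These coding sequences were picked after their values were seen.

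**Figure D5:**
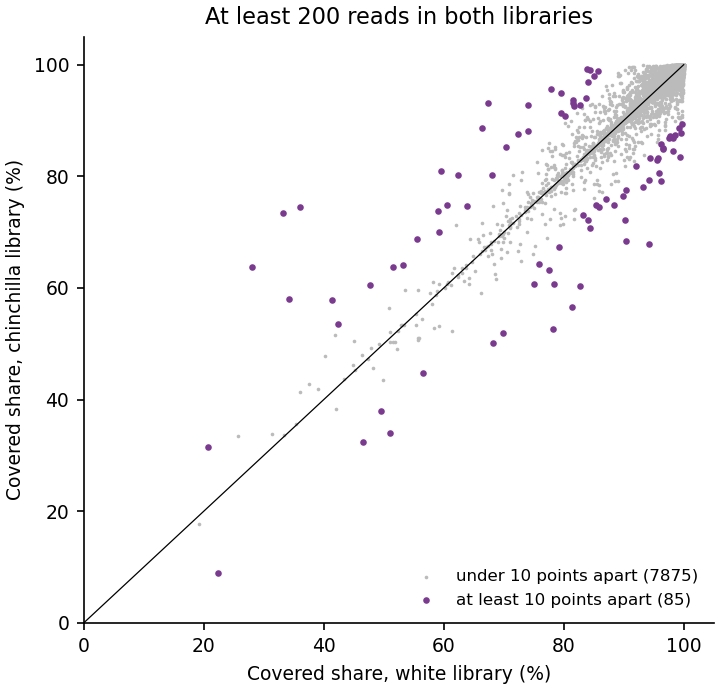
Share of the bases of each coding sequence touched by reads (%), white library on the horizontal and chinchilla library on the vertical axis, for the 7960 coding sequences with at least 200 reads in both, with a line of equality. The 85 that lie at least 10 points apart (purple) fall on both sides of the line.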

How the data were processed

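The authors deposited 1 list per library with unique read counts, coding length, the percentage of bases covered and RPKM, per the file headers. The deposited RPKM values followed from the counts, the lengths and the count totals in the headers. All lengths are multiples of 3, so they hold no UTRs. The aligner, the genome build and strand handling are not stated in the labels or headers. Since unique reads were counted, near-identical copies can be undercounted, and overlapping genes cannot be separated. A missing identifier was taken as 0 reads.

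Differences were log2(RPKM + 1), chinchilla minus white, a scale that understates folds at low levels. A 2-fold difference counted where the higher of both values reached 1 RPKM. Ratios carry exact 95% intervals (Clopper-Pearson, from the conditional binomial share of the reads). Reads are not independent molecules, so intervals and the floor of 3 reads cover counting error only. The interval was run on simulated counts that held counting error only, as it assumes. This checks the calculation, and does not cover the spread between animals. With 1 library a side no p-value was computed.

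By rule, the 2 highest and 2 lowest differences were named by identifier. The next 8 on each side, all those 2-fold apart from 1000 RPKM up, the 5 furthest on each side from 100 to 1000 RPKM and the 3 best supported against 0 reads were named by length. The rule, the comparison and the alternatives were chosen with earlier results of these data known. Planned lists of pigment, follicle and cell type genes could not be applied without gene names. Alternatives were pseudocounts of 0.1 and 5, other floors, thresholds and scalings (TMM by edgeR 4.0.16), a coverage minimum, and removal of a lowess trend over length (fraction 0.3). Python 3.11.15, SciPy 1.17.1 and statsmodels 0.14.6 were used.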

Additional observations from a re-analysis of the deposited data

How the results depend on the processing

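The counts of 219 higher and 130 lower coding sequences depended on the treatment of low levels and on the threshold. They were 486 and 244 with a pseudocount of 0.1, and 53 and 62 with a pseudocount of 5, where the balance turned. A floor of 5 RPKM left 134 higher (and 103 lower), a 4-fold threshold 16 and 9, and a counting interval beyond 2-fold 119 and 76, of which 179 were among the 349. A minimum of 10 reads, a covered share of at least 50%, the 3 other scalings and removal of the length trend kept both counts within 1.5 times. Dropping the floor could not change them, since a 2-fold difference in log2(RPKM + 1) already needs at least 1 RPKM. TMM scaling gave 196 and 153, with 326 of the 349 kept, and moved the median difference by 0.055 (log2). Of 246 alternative values for the 41 coding sequences named by the rule, 35 moved by more than their counting interval, 20 of them under another scaling. Those with 0 reads in chinchilla or white skin could not count as moved, since no limit was set for them. One of these, of 1074 bases, ran from 0.73 to 5.08 (log2). No sign could turn, since a pseudocount keeps it and the other scalings and the length trend shift by too little. No paired analysis was possible because each colour has 1 library, and none could be left out. Depth limits the low levels: at the median coding length, 3 reads come to 0.159 RPKM (white) or 0.157 RPKM (chinchilla).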
